A study of Mus musculus with 38 samples.

Results

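The B4 and ID elements examined here are short interspersed nuclear elements (SINEs) of the mouse genome, chosen as every annotated copy of the SINE class that the deposited tables assign to family B4 or family ID. They number 440972 of the 3793386 transposable element (TE) copies in the tables, or 11.6%. Family B4 holds 380386 copies in the subfamilies B4 (62521), B4A (99676), RSINE1 (109712) and ID_B1 (108477). Family ID holds 60586 copies in the subfamilies ID (8970), ID2 (4810), ID4 (21543) and a further one that the tables spell ID4_. with 25263 copies. These are 8 of 1241 TE subfamilies, and all 8 were among the 1205 subfamilies with at least 10 copies that were tested.

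Chromatin contacts of the inner nuclear membrane protein LAP2B were profiled by CUT&RUN, in which an antibody directs a nuclease to its target so that nearby DNA is released and sequenced, in mouse embryonic stem (mES) cells kept naive in serum-free medium with kinase inhibitors and LIF and in epiblast-like cells (EpiLCs) made from them with FGF and activin A. There were 4 genotypes with 3 libraries each per stage, namely wildtype (WT), LBR knockout (LBRKO, without the lamin B receptor), lamins triple knockout (TKO, without Lmna, Lmnb1 and Lmnb2) and lamins and LBR quadruple knockout (QKO), 24 LAP2B libraries in all. The nuclear lamina protein lamin B1 (LMNB1) and a non-specific antibody control (IGG) were analysed here in WT cells, with 3 libraries per stage, and 2 H3K9me3 samples were not analysed here. The TKO line and its littermate WT line came from another laboratory as separate lines. Karyotyping found the TKO line abnormal and a part of the WT cells abnormal too, with chromosome changes that were not all the same. Both lines held cells with an extra autosome and cells without the Y chromosome. LAP2B values were not corrected for chromosome number. LBRKO was made from the WT line, whereas QKO is a single clone made from TKO cells. More than 1 LBRKO clone was derived, and which of them gave the libraries is not given in the sources used here. Nothing ties the replicates of a genotype to separate lines, and p-values measure the spread between libraries, which may be technical. The LAP2 antibody was raised to a region partly shared with the nucleoplasmic isoform LAP2α, and the study took it to detect mainly LAP2B, the form at the inner nuclear membrane. The study did not use EpiLC LAP2B to stand for lamina-associated domains, because in EpiLCs its signal lay outside such domains as well, and the EpiLC values here are LAP2B values only.

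SINEs are non-autonomous retrotransposons. They encode no protein, are transcribed by RNA polymerase III from an internal promoter and are copied with the enzymes of LINE-1 elements. ID elements descend from the gene of the neuronal RNA Bc1, which itself derives from an alanine tRNA gene, and B4 elements join an ID-like part to a part resembling B1, so both families carry tRNA-related sequence near the 5′ end. As a class, mouse SINEs lie mainly in gene-rich, early replicating DNA, in contrast to the LINE-1-rich DNA that lines the nuclear periphery as lamina-associated domains. The other abundant mouse SINEs are B1 (in the tables family Alu, 557926 copies) and B2 (369746 copies), and these are set beside B4 and ID below.

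Letters resembling Bc1 were looked for in bins that hold B4 and ID copies. Bc1 (ENSMUSG00000115783) lies on the plus strand at chr7:144468199-144468374 of GRCm39 and is shown whole, with capitals over the bases 9 to 73 that the best aligned stretch covered. The tables give no coordinates for TE copies, so 1 kb bins were located through annotated genes that lie within a single bin and have the same reads in all 36 libraries as a copy. This placed 1125 of the 440972 member copies (0.255%), all in bins that hold a small annotated gene and thus not a random draw. The first 75 bases of Bc1 were aligned to each such bin, and the best aligned stretch of each subfamily among bins with exactly 1 member copy was kept. The 4 of these that lie in bins without any other TE copy are shown, with capitals for bases identical to Bc1 and named by the copy the bin holds. Where in the bin that copy lies is not given, so the letters are those of the bin and need not be the copy's own.
Bc1: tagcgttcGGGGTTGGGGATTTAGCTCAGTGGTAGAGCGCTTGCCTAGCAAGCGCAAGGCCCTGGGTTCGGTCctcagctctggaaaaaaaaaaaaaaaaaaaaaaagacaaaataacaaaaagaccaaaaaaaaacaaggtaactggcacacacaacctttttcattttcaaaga
ID4_dup11650 bin: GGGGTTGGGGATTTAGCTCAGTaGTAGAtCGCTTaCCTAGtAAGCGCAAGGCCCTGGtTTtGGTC
ID4_v_dup980 bin: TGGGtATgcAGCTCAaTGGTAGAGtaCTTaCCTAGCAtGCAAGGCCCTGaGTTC
RSINE1_dup43266 bin: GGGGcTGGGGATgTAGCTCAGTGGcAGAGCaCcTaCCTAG
B4_dup47599 bin: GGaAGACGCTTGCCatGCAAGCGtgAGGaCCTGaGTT

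In the bin of ID4_dup11650 the stretch (chr9:106689152-106689216, plus strand, outside annotated genes) matched Bc1 at 59 of 65 bases, with an alignment score of 100. In that of ID4_v_dup980, a copy of subfamily ID4_. in the tables, the stretch (chr1:128442408-128442461, minus strand, outside annotated genes) matched at 45 of 54 with a score of 56. In that of RSINE1_dup43266 (chr7:18656030-18656069, plus strand, outside annotated genes) it matched at 34 of 40 with a score of 50, and in that of B4_dup47599 (chr12:108957635-108957671, minus strand, in an intron of Wdr25) at 30 of 37 with a score of 34. The highest score in a located bin without a member was 65, so of the 4 stretches only that of ID4_dup11650 lay above every bin without a member. Over all located bins with exactly 1 member copy, an alignment score of at least 30 was found in 63.3% of the 49 ID4 bins, 8 of the 16 ID2 bins and 46.0% of the 63 bins of ID4_. copies. It was found in 21.4% of 14 ID bins, 10.3% of 262 ID_B1 bins, 8.33% of 144 B4A bins, 5.61% of 107 B4 bins and 3.02% of 232 RSINE1 bins, against 1.32% of the 3877 located bins without a member. The shares were highest for bins with ID4, ID2 and ID4_. copies and lowest among member bins for RSINE1 and B4.

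Values are the deposited ones, which sum over the 1 kb bins a copy touches the read density (RPKM, scaled for bin length and library size) multiplied by a yeast spike-in factor. They are not divided by length, and a copy shares the value of its whole bin. Of the member copies with reads, 66.2% had the same values as at least 1 other TE copy, 24.4% the same as another B4 or ID copy, 29.3% the same as a B1 copy and 15.1% the same as a B2 copy. Neighbouring elements of a bin therefore cannot be told apart. On the spike-in scale values are used as deposited. RPKM is already divided by library size, so a library's level on this scale follows its spike-in factor. It is not the yield of mouse reads against yeast reads. On the relative scale each library is divided by its median TE subfamily, so that 1 means the level of the median subfamily. Summed over the distinct sets of values of TE copies, recovered reads came to between 27225731 and 94879461 per library. A bin touched by copies with different sets of values enters this sum more than once, so it is not a sequencing depth. The median member copy had 8 to 29 reads.

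In WT cells, B4 and ID elements carried less LAP2B and less LMNB1 than most TEs. The mean naive WT value over all member copies was 0.824 ± 0.030 of the median subfamily for LAP2B and 0.779 ± 0.031 for LMNB1 (SD, n = 3 for this and all following means), against 1.01 ± 0.019 for IGG. B1 copies stood at 0.801 ± 0.039 for LAP2B and 0.764 ± 0.041 for LMNB1. B2 copies stood at 0.803 ± 0.033 and 0.784 ± 0.029, so the low level was shared by B1 and B2. The 8 subfamilies had naive WT LAP2B levels from 0.764 ± 0.029 (ID4) to 0.890 ± 0.021 (B4A), which placed them 27th to 261st from the lowest of the 1205 subfamilies. The ID family and ID_B1 and RSINE1 all lay below B4 and B4A in each of the 3 libraries. Set beside IGG of the same stage, LAP2B stood at 0.754 (ID) to 0.865 (B4A) in naive cells and at 0.826 (ID) to 0.906 (B4A) in EpiLCs, and LMNB1 at 0.703 (ID) to 0.823 (B4A) and 0.734 (ID) to 0.847 (B4A). In all 8 subfamilies and at both stages, the 3 LAP2B and the 3 LMNB1 libraries lay below the 3 IGG libraries. Of all 1205 subfamilies, 31.8% (naive) and 21.3% (EpiLC) likewise had every LAP2B library below every IGG library, and 35.8% and 32.6% every LMNB1 library. The tables of the 3 antibodies were scaled separately, so these ratios are side by side values with no test.

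On the spike-in scale, LAP2B over B4 and ID elements fell in naive TKO and QKO cells, to a level that was a larger share of WT than for TEs as a whole and a smaller one than for B1 and B2. In naive cells the mean value over member copies was 0.489, 0.731 and 0.546 in the WT libraries, 0.595, 0.670 and 0.80 in the LBRKO libraries, 0.257, 0.425 and 0.294 in those of TKO, and 0.264, 0.210 and 0.250 in those of QKO. TKO and QKO libraries all lay below the lowest WT library, at 55.3% and 40.9% of the WT mean, while LBRKO overlapped WT at 117%. Over all TE copies the same ratios were 91.3% (LBRKO), 49.1% (TKO) and 29.9% (QKO), and over LINE copies they were 67.9%, 41.4% and 18.4%. B1 copies were at 127%, 60.6% and 49.9% of WT and B2 copies at 121%, 57.3% and 44.8%, so both stood above B4 and ID in each mutant. These differences between groups of copies were not tested. In EpiLCs the WT libraries had means of 0.647, 0.451 and 0.639, and the LBRKO libraries 0.613, 0.618 and 0.670. TKO libraries had 0.640, 0.439 and 0.363 there, and QKO libraries 0.325, 0.297 and 0.301. QKO again lay below every WT library, at 53.1% of the mean, while LBRKO (109%) and TKO (83.0%) overlapped WT. WT IGG over member copies, scaled separately, was 0.126, 0.089 and 0.136 in the naive and 0.176, 0.404 and 0.153 in the EpiLC libraries. Over LINE copies its naive mean was 0.140. Background was not subtracted, so the shares of WT above include it. In naive WT, naive TKO, EpiLC TKO and EpiLC QKO, the LAP2B library with the fewest reads per median member copy also had the highest value. In the other LAP2B groups it did not. How far depth moved the shares of WT was not tested.

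**Figure D1:**
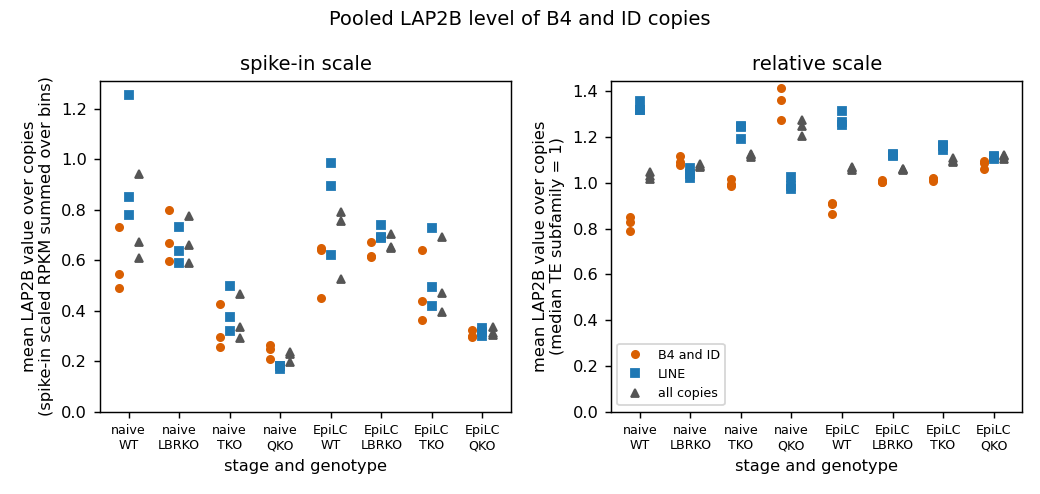
Mean LAP2B value over all B4 and ID copies, LINE copies and all TE copies in each of the 24 LAP2B libraries, on the spike-in scale (left, deposited values) and the relative scale (right, median TE subfamily = 1). Each point is 1 library. On the left all groups of copies are low in naive QKO, and on the right B4 and ID rise from below all copies in naive WT (0.824) to above them in naive QKO (1.35).

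In limma fits across all subfamilies, all 8 B4 and ID subfamilies were called lower on the spike-in scale (adjusted p under 0.05) in naive TKO (99.6% of all subfamilies lower), naive QKO (99.8%) and EpiLC QKO (99.9%). The log2 change in naive QKO ran from -1.38 to -0.85 over the 8 subfamilies, beside a median of -1.75 over all subfamilies. In EpiLC TKO limma called 0 of the 8 (15.6% of all subfamilies lower, lowest adjusted p of the 8 0.13), with 0 at an unadjusted p under 0.05, and leaving out replicate 1 of EpiLC TKO made all 8 lower, but also 97.9% of all subfamilies, and leaving out replicate 2 of EpiLC WT made 2 of the 8 and 94.8% of all lower. In LBRKO it called 0 of the 8 in naive cells (9.21% of all in either direction) and 0 in EpiLCs (0.00% of all), also with 0 at an unadjusted p under 0.05. With the spike-in factor applied to the recovered reads, naive LBRKO gave 2 of the 8 higher, where 1.66% of all subfamilies were called higher and 9.88% lower. Because a library's spike-in factor moves every subfamily at once, these calls share a single error, and 3 libraries against 3 allow no exact permutation p under 0.1.

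On the relative scale, all 8 subfamilies were higher than in WT in every mutant at both stages. This scale asks where the remaining signal lies, background included. The rise was largest in naive QKO. Over member copies the naive means were 1.095 (LBRKO), 0.999 (TKO) and 1.35 (QKO), beside 1.005 for WT IGG. In EpiLCs they were 1.005, 1.016 and 1.081, beside 1.027 for WT IGG. The means of naive TKO, EpiLC LBRKO and EpiLC TKO were thus slightly below WT IGG, and the others above it. LAP2B and IGG were scaled separately, and whether these rises reflect background was not tested. ID_B1, in which an ID-like head joins a B1-like part, stood at 0.804, 0.747 and 0.827 in the naive WT libraries, 1.15, 1.17 and 1.21 in the LBRKO libraries, 1.06, 1.08 and 1.05 in those of TKO, and 1.73, 1.49 and 1.63 in those of QKO. No mutant library overlapped WT, and the log2 change from WT was 0.52 ± 0.04 in LBRKO, 0.39 ± 0.04 in TKO and 0.94 ± 0.04 in QKO (SE, adjusted p 1.1e-09, 5.7e-07 and 1.5e-13). These SE and p-values rest on a single spread shared by all LAP2B groups, but the groups differed in spread. The SD of ID_B1 was 0.120 in naive QKO, 0.041 in naive WT and 0.006 in EpiLC LBRKO. The QKO change ranked 18th from the highest of 1205 subfamilies. RSINE1, the most numerous subfamily of the group, went from 0.803, 0.765 and 0.827 in WT to 1.06, 1.06 and 1.1 in the LBRKO libraries, 0.976, 0.985 and 0.965 in those of TKO and 1.40, 1.26 and 1.34 in those of QKO. Again the groups did not overlap WT, with log2 changes of 0.38, 0.26 and 0.67.

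B4 and B4A, the 2 subfamilies with most LAP2B in WT, rose least. B4 was at 0.877, 0.842 and 0.890 in naive WT, 1.04, 1.08 and 1.07 in the LBRKO libraries, 0.972, 1.01 and 0.959 in those of TKO, and 1.24, 1.17 and 1.22 in those of QKO. B4A was at 0.895, 0.867 and 0.908 in naive WT, 1.04, 1.06 and 1.07 in the LBRKO libraries, 0.981, 1.01 and 0.969 in those of TKO, and 1.20, 1.14 and 1.18 in those of QKO. The log2 change of B4 was 0.27 (LBRKO), 0.16 (TKO) and 0.44 (QKO), and that of B4A was 0.22, 0.14 and 0.37. Each was called, and no mutant library overlapped WT.

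The ID family rose by amounts between those of B4 and ID_B1. ID itself, the family's namesake, was at 0.772, 0.731 and 0.799 in naive WT, 1.08, 1.09 and 1.13 in the LBRKO libraries, 1.02, 1.02 and 1.01 in those of TKO, and 1.57, 1.35 and 1.51 in those of QKO. ID4, whose located bins most often held a Bc1-like stretch, was at 0.768, 0.733 and 0.791 in WT, 1.09, 1.09 and 1.13 in the LBRKO libraries, 0.962, 0.971 and 0.945 in those of TKO, and 1.40, 1.25 and 1.34 in those of QKO. In all 4 ID subfamilies the mutant libraries lay above all WT libraries, as they did in 32.2% (LBRKO), 35.5% (TKO) and 38.4% (QKO) of all 1205 subfamilies. The log2 changes of the ID family ran from 0.40 (ID2) to 0.48 (ID4) in LBRKO, from 0.27 (ID2) to 0.36 (ID) in TKO and from 0.68 (ID2) to 0.86 (ID) in QKO. Within QKO, replicate 2 had the lowest relative value in all 8 subfamilies, but it still lay above every WT, LBRKO and TKO library.

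**Figure D2:**
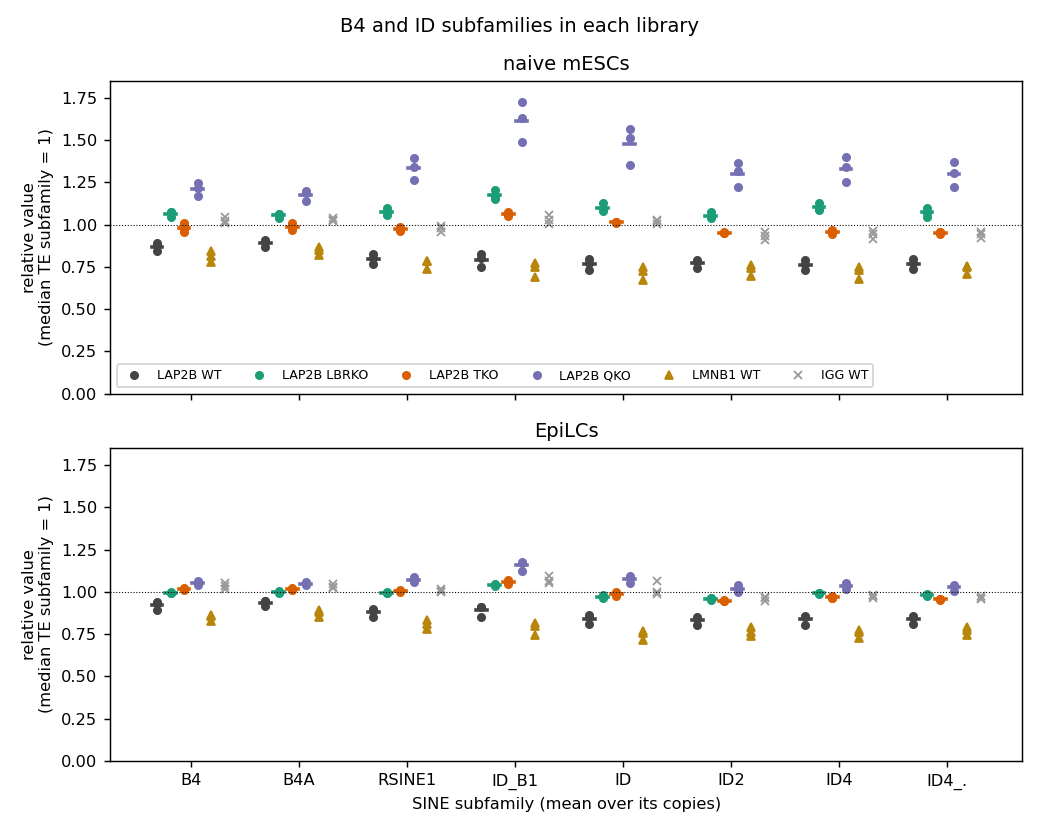
Relative value (median TE subfamily = 1) of each B4 and ID subfamily in each library, for naive mES cells (top) and EpiLCs (bottom). Circles are LAP2B libraries coloured by genotype with a bar at the mean of 3, triangles are LMNB1 and crosses IGG libraries of WT cells. Naive QKO circles lie highest in each subfamily, and WT LAP2B and LMNB1 lie below IGG.

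Against all TEs, the share of subfamilies called higher was 31.0% in naive LBRKO, 33.3% in naive TKO and 38.2% in naive QKO, so a call alone was common. In naive QKO the members' changes ranked 18th to 129th from the highest of 1205, and their median was 0.69 beside -0.02 for all subfamilies and -0.18 for the 194 LINE subfamilies. All 15 B1 and all 5 B2 subfamilies were called higher too, with medians of 0.90 and 0.95. In naive LBRKO the medians were 0.42 (B4 and ID), 0.49 (B1), 0.50 (B2) and -0.03 (all), and in naive TKO 0.28, 0.39, 0.40 and 0.02. The 3 mutants were compared with the same WT libraries. Dividing libraries by their mean TE copy instead moved the median of all subfamilies in naive QKO by -0.24 and the split of calls from 460 higher and 514 lower to 157 higher and 900 lower, and dividing by the median copy gave 313 higher and 544 lower, but all 8 B4 and ID subfamilies stayed higher under both (log2 0.12 to 0.69 and 0.32 to 0.89). In naive TKO the same divisors moved the median of all subfamilies by -0.11 and -0.13, the split from 401 higher and 250 lower to 148 and 645 or 83 and 590, and the members called from 8 to 7 (without B4A) or 6 (without B4 and B4A). In naive LBRKO the split went from 373 higher and 504 lower to 259 and 604 or 230 and 495, with all 8 members higher.

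**Figure D3:**
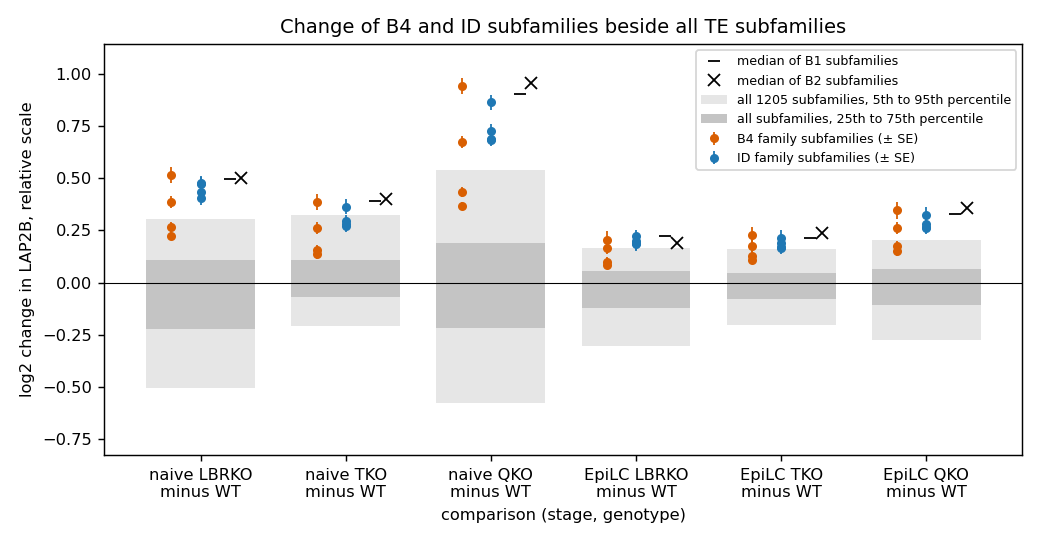
Log2 change in relative LAP2B from WT for the B4 subfamilies (orange) and ID subfamilies (blue, bars are SE) in 6 comparisons, beside the spread of all tested subfamilies (grey bands) and the medians of B1 (dash) and B2 (cross). Members lie above 0 in each comparison, furthest in naive QKO.

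In EpiLCs the same 8 subfamilies were higher in every mutant, by less. ID_B1 was at 0.850, 0.912 and 0.910 in EpiLC WT, 1.04, 1.04 and 1.05 in the LBRKO libraries, 1.07, 1.06 and 1.04 in those of TKO, and 1.17, 1.18 and 1.13 in those of QKO. ID4 was at 0.806, 0.855 and 0.848 in WT, 0.992, 0.987 and 0.994 in the LBRKO libraries, 0.975, 0.966 and 0.961 in those of TKO, and 1.04, 1.05 and 1.02 in those of QKO. B4A, with the smallest changes, was at 0.913, 0.946 and 0.947 in WT, 0.996, 0.995 and 1.00 in the LBRKO libraries, 1.02, 1.02 and 1.01 in those of TKO, and 1.05, 1.06 and 1.04 in those of QKO. Mutant libraries lay above WT without overlap in all 8 subfamilies, and in 24.6% (LBRKO), 21.2% (TKO) and 27.3% (QKO) of all 1205 subfamilies. The log2 changes ran from 0.09 (B4A) to 0.22 (ID4) in LBRKO, from 0.11 (B4A) to 0.23 (ID_B1) in TKO and from 0.15 (B4A) to 0.35 (ID_B1) in QKO, with adjusted p up to 0.0028. Of all subfamilies, 18.9% (LBRKO), 14.6% (TKO) and 22.6% (QKO) were called higher, with medians of -0.02, -0.01 and -0.01, and the B1 and B2 medians in QKO were 0.33 and 0.36. With the median over copies in place of the mean, EpiLC TKO gave 0 of 8 calls (log2 0.09 to 0.21, with 0.249% of all subfamilies called higher). EpiLC LBRKO then gave 6 (0.09 to 0.24, 5.15% of all higher) and EpiLC QKO 7 (0.13 to 0.30, 5.06% of all higher). Dividing by the median copy changed the split of all calls in EpiLC QKO from 272 higher and 322 lower to 68 and 368, with 7 of the 8 members still higher, and in EpiLC TKO from 176 and 222 to 51 and 124, with 6 of the 8. In EpiLC LBRKO the calls went from 228 higher and 346 lower to 121 and 216, also with 6 of the 8, B4 and B4A being lost in LBRKO and TKO and B4A in QKO. With this divisor the changes were 0.10 to 0.23 in LBRKO, 0.10 to 0.22 in TKO and 0.10 to 0.29 in QKO. With the mean copy the QKO and TKO splits were 133 and 549 and 93 and 376, with all 8 members higher in both.

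On the relative scale, the effect of LBRKO and of QKO was larger in naive cells than in EpiLCs. The study reported moderately reduced EpiLC survival in LBRKO and TKO and a severe loss in QKO. Mutant EpiLC libraries thus came from surviving cells, and stage and survival cannot be told apart in these contrasts. For QKO the EpiLC change minus the naive change was negative in all 8 subfamilies, from -0.60 ± 0.06 in ID_B1 to -0.22 ± 0.03 in B4A (SE), with adjusted p of 7.8e-06 or less, and 29.0% of all subfamilies were called lower in this interaction contrast. For LBRKO it ran from -0.31 ± 0.06 in ID_B1 to -0.14 ± 0.03 in B4A, with adjusted p of 0.0020 or less and 12.4% of all subfamilies called lower. The medians over B1 and over B2 subfamilies were -0.58 and -0.60 for QKO and -0.29 and -0.31 for LBRKO, so the difference was not particular to B4 and ID. Dividing by the median copy, or taking the median over copies, left 1 of 8 calls for LBRKO (1.24% and 1.08% of all subfamilies lower), with differences of -0.27 to -0.09 and -0.29 to -0.13. The median over copies left 6 of 8 for QKO, at -0.53 to -0.14, with 4.48% of all subfamilies called lower. The divisor also set the split of all calls, which went for QKO from 298 higher and 350 lower to 780 and 96 with the mean copy (7 of 8 members still lower, median of all subfamilies moved by 0.18), and for LBRKO from 172 and 150 to 342 and 66 with the mean copy and to 111 and 15 with the median copy. On the spike-in scale the QKO difference was 0.15 to 0.49 over the 8 subfamilies, and limma called 0 of them with 0 at an unadjusted p under 0.05, so the direction of this contrast belongs to the relative scale. The LBRKO difference there was -0.18 to 0.0010, also with 0 called and 0 at an unadjusted p under 0.05. For TKO limma called 0 of 8 (adjusted p 0.053 to 0.60, 5 at an unadjusted p under 0.05, 0 by edgeR), beside 16.5% of all subfamilies called lower (25 higher and 199 lower, against 70 and 10 divided by the median copy, which moved the median of all by 0.12, and 114 and 85 by the mean copy), and without replicate 2 of naive QKO, which enters through the shared spread, 5 of 8 and 20.0% of all were called lower. It was 3 of 8 without replicate 1 of naive QKO (18.6% of all) or replicate 3 of naive WT (16.9%) and 4 of 8 without replicate 1 of EpiLC WT (15.0%). The TKO direction belongs to the relative scale too. On the spike-in scale the mean over member copies was at 55.3% of WT in naive TKO and 83.0% in EpiLC TKO.

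Between the stages in WT cells, LAP2B over B4 and ID elements was slightly higher in EpiLCs on the relative scale. The mean over member copies went from 0.831, 0.790 and 0.850 in the naive to 0.865, 0.912 and 0.908 in the EpiLC libraries, which did not overlap. Every EpiLC library lay above every naive one in 19.7% of all 1205 subfamilies. All 8 subfamilies were called higher, by 0.06 (B4A) to 0.15 (ID_B1) log2 units (adjusted p 0.0060 to 0.029), with 14.2% of all subfamilies called higher. This rests on the divisor and on single libraries. Dividing by the median copy moved the median of all subfamilies by -0.13, left 0 of 8 called and turned 7 of the 8 signs. It moved the split of calls from 171 higher and 162 lower to 6 and 645 (72 and 314 with the mean copy). The 6 libraries fitted alone gave 0 calls, with 1.91% of all subfamilies called higher. Leaving out naive WT replicate 2 or EpiLC WT replicate 2 left 1 of 8 (4.73% and 4.32% of all higher). Without EpiLC WT replicate 3 it was 4 (9.79%), and without naive WT replicate 1 it was 6 (8.55%). The median over copies left 1 as well, at 0.11 to 0.18 (0.830% of all), and the mean copy as divisor 6. On the spike-in scale the WT means over member copies were 0.589 in naive cells and 0.579 in EpiLCs, with overlapping libraries. For LMNB1 and for IGG, limma and edgeR called 0 of 8 between the stages (limma adjusted p 0.43 to 0.55 and 0.43 to 0.99, 0 at an unadjusted p under 0.05 in either, with 0.913% and 0.249% of all subfamilies called).

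The relation of LAP2B to the lamina was read within the members by parting the copies into 4 equal classes by WT LMNB1 of the same stage. In naive WT cells the relative LAP2B mean rose from 0.439 ± 0.065 in the class with least LMNB1 to 1.43 ± 0.025 in the class with most. In naive QKO the 4 classes stood at 1.39 ± 0.093, 1.42 ± 0.090, 1.27 ± 0.055 and 1.34 ± 0.039, so the rise across the classes seen in WT was not seen there. Other TE copies were not parted in this way, so whether this is particular to B4 and ID was not tested. The log2 ratio of the highest to the lowest class was 1.66, 1.98 and 1.5 in the naive WT libraries, 1.28, 0.921 and 1.09 in the LBRKO libraries, 1.02, 0.730 and 1.05 in those of TKO, and -0.096, 0.013 and -0.067 in those of QKO. All 9 mutant libraries lay below the WT libraries and the QKO libraries lay below all others. The sign of the small mean ratio in naive QKO (-0.050) was not settled, since it was 0.14 without naive WT LMNB1 replicate 1, -0.18 without replicate 2, and 0.37 with classes by LMNB1 of the other stage.

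In EpiLCs this ratio was 1.25, 1.02 and 1.08 in WT, 1.04, 1.03 and 0.969 in the LBRKO libraries, 0.725, 0.723 and 0.711 in those of TKO, and 0.621, 0.617 and 0.641 in those of QKO. TKO and QKO lay below WT, while LBRKO overlapped it. Values are not per length and IGG rose across the classes too, from 0.837 to 1.28 in naive and from 0.834 to 1.33 in EpiLC WT cells. With classes by the ratio of LMNB1 to IGG, the mean log2 ratio was 1.08 (WT), 0.10 (LBRKO), 0.0054 (TKO) and -1.36 (QKO) in naive cells and 0.19, -0.10, -0.53 and -0.77 in EpiLCs. The order of the genotypes stayed, but the ratio fell in every group and was 0.19 or less outside naive WT. Such classes place copies with high IGG lower, so they do not free the ratio of background. In naive cells 29.5% of ID copies lay in the lowest LMNB1 class and 19.9% in the highest, with 27.5% and 22.1% of ID_B1 copies and 22.2% and 29.4% of B4A copies.

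**Figure D4:**
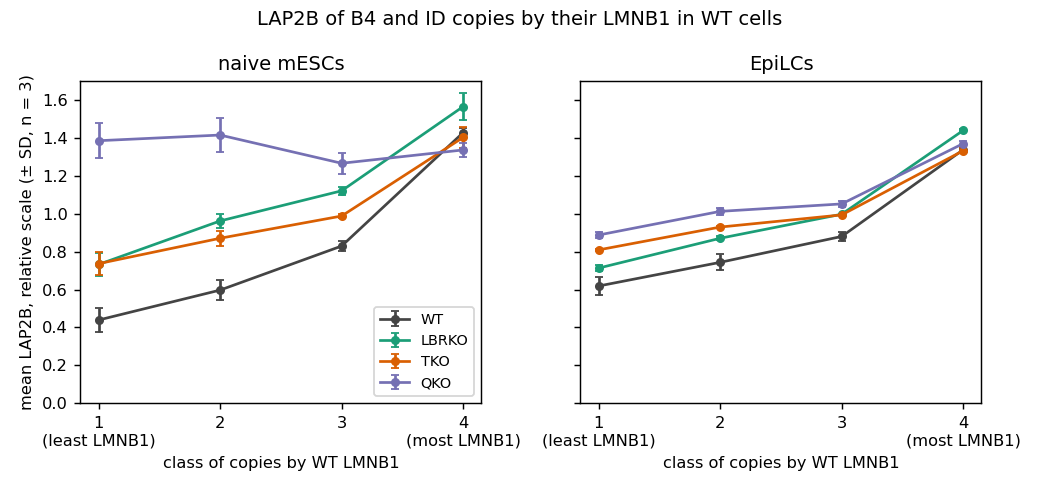
Mean relative LAP2B of B4 and ID copies in 4 equal classes by WT LMNB1 of the same stage (x axis, from least to most), by genotype, in naive mES cells (left) and EpiLCs (right). Points are means of 3 libraries and bars SD. The WT line climbs from 0.439 to 1.43 in naive cells, while the QKO line stays between 1.27 and 1.42.

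Single copies varied far more than the subfamily means. In naive WT cells the middle 50% of member copies lay between 0.475 and 1.01 (relative scale), and in naive QKO between 0.563 and 1.64. Of the 440972 member copies, 409874 (92.9%) passed a filter that left out the lowest 10% of all TE copies by mean LAP2B. In naive QKO, 142860 of these (34.9%) were called higher and 43459 (10.6%) lower, where 25.3% and 18.0% of all copies tested were called. The median log2 change was 0.47 with quartiles at -0.47 and 1.45, beside -0.03 with quartiles at -0.84 and 1.05 over all copies. Because TE copies share bins, each distinct set of values (bin profile) was also counted once, an alternative chosen after seeing the data. Of the 2254632 profiles 20.3% were then called higher and 20.8% lower, with a median of -0.24, and of the 356096 profiles that hold a member 32.9% were higher and 10.9% lower, with a median of 0.41. Higher calls no longer outnumbered lower ones over all profiles, as they did over all copies, and still outnumbered them over profiles with a member. By subfamily, the share called higher ran from 26.1% (B4A) and 28.1% (B4) to 41.2% (ID) and 44.4% (ID_B1), and the share lower from 13.9% (B4A) to 7.64% (ID_B1).

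In naive LBRKO, 19.9% of member copies were higher and 3.44% lower (14.3% and 8.02% of all copies). In naive TKO the shares were 10.4% and 1.41% (7.75% and 1.79% of all). In EpiLCs few copies were called at all. LBRKO gave 2.05% higher and 0.226% lower (1.57% and 0.633% of all), TKO 0.0629% and 0.0115% (0.0532% and 0.0339% of all), and QKO 2.23% and 0.234% (1.60% and 0.510% of all). Copies in a shared bin are counted each and are not independent. Over distinct profiles the shares with a member were 18.8% and 3.54% in naive LBRKO (12.0% and 9.68% of all profiles) and 9.18% and 1.27% in naive TKO (6.06% and 1.79% of all). In EpiLCs they were 1.88% and 0.222% in LBRKO (1.36% and 0.768% of all profiles), 0.0570% and 0.0115% in TKO (0.0496% and 0.0447% of all), and 1.76% and 0.202% in QKO (1.17% and 0.528% of all). The EpiLC counts moved by more than 1.5 times with single libraries, as for QKO from 9124 higher to 1210 without EpiLC QKO replicate 1 (54584 to 7795 over all copies). In naive cells, leaving out WT replicate 2 took the member copies called higher from 81755 to 49771 in LBRKO and from 42830 to 21167 in TKO. Over all copies those higher went from 488101 to 296828 and from 264674 to 130908.

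**Figure D5:**
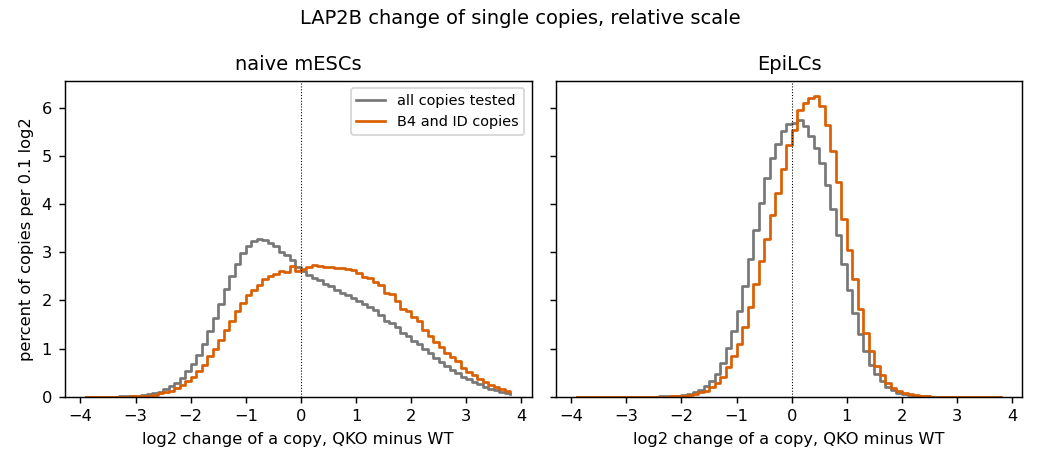
Distribution of the log2 change in relative LAP2B of single copies from WT to QKO in naive mES cells (left) and EpiLCs (right), as percent of copies per 0.1 log2 unit, for B4 and ID copies (orange) and all copies tested (grey). The naive curves are broad, with the member curve shifted to the right (median 0.47 against -0.03).

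The 4 bins whose letters are shown above give single examples at low read numbers. The bin of ID4_dup11650 had relative LAP2B of 0.644, 0.131 and 0.389 in naive WT (22 reads in all), 0.982, 0.697 and 0.923 in the LBRKO libraries, 0.232, 0.449 and 0.336 in those of TKO, and 1.54, 0.781 and 1.71 in those of QKO (64 reads), so that TKO overlapped WT and QKO did not. The bin of RSINE1_dup43266 went from 0.368, 0.065 and 0.13 in WT (11 reads) to 1.36, 0.928 and 0.545 in QKO (49 reads), and that of B4_dup47599 from 0.552, 0.392 and 0.518 (26 reads) to 1.42, 0.928 and 0.779 (53 reads), neither overlapping. The bin of ID4_v_dup980 had 1.24, 0.916 and 2.07 in WT (73 reads) and 0.948, 1.07 and 0.623 in QKO (46 reads), which overlapped.

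Single copies at the extremes were named by a rule, which asks for a mean over all LAP2B libraries that a copy absent in some lines can reach only through the others. The 4 copies below had no or almost no reads in naive WT or naive QKO and passed through the lines where they were high, so they are described and not tested. Among member copies that were called, did not overlap between naive QKO and WT, and had at least the median copy's level, B4_dup31539 had the largest fitted rise. It had 0 reads in the naive WT libraries and relative values of 5.45, 6.15 and 5.06 in QKO (283 reads), at least 98.6-fold higher against a floor of 3 reads over the WT group. It was at 0 in all WT and LBRKO libraries of LAP2B and all IGG libraries, at 0.038 in 1 of the 6 LMNB1 libraries (EpiLC replicate 2) and 0 in the others, and at 2.67, 3.59 and 1.81 in naive TKO. Its lack of reads in WT was thus not particular to LAP2B, and whether its DNA is present in those cells was not tested. ID_B1_dup43600 was next, at 0.092, 0 and 0 in naive WT (2 reads) and 9.07, 4.40 and 7.48 in QKO (339 reads). Its fitted log2 change was 5.95 beside 6.03 for B4_dup31539, so which of them rose more is not settled. Reads pooled over the 3 libraries of each group, divided by the group's pooled depth on the relative scale, gave a ratio of 177 with a 95% counting interval of 48.7 to 1469, and the bounds of the other 3 copies have the same basis. The copies were picked for their change, so interval and bounds are descriptions and no test. Libraries of a group also differed by more than independent counts would. Over member copies the chi-square per degree of freedom between replicates was 2.31 to 2.43 in naive WT and 2.37 to 2.71 in naive QKO. The values of ID_B1_dup43600 are shared with 2 B1 copies and an RSINE1 copy. Reads of this bin were present in WT cells, with IGG at 0.896, 1.30 and 0.971 in the naive and 1.92, 0.598 and 1.52 in the EpiLC libraries.

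ID_dup6279 had the largest fitted fall, a log2 change of -5.19 beside -4.92 for the next copy, B4_dup47720, so their order is not settled either. ID_dup6279 went from 2.90, 3.14 and 3.11 in naive WT (159 reads) to 0 in all 3 naive QKO libraries, at least 50.7-fold lower, and it stood at 0, 0.112 and 0 in naive TKO. B4_dup47720 fell from 2.35, 2.35 and 2.85 (131 reads) to 0 in QKO, at least 41.8-fold lower, with 0.116, 0.224 and 0 in TKO. In EpiLCs both were likewise at or near 0 in TKO and QKO. Over all member copies, 14 had no read in the 24 WT and LBRKO libraries of all antibodies and at least 30 in the 12 TKO and QKO libraries, and 50 had none in TKO and QKO and at least 30 in the 18 WT libraries. These are 0.00317% and 0.0113% of member copies, beside 131 (0.00345%) and 492 (0.0130%) of all TE copies. No IGG library of TKO or QKO cells was analysed here, so in those lines a copy whose DNA is absent and a copy without LAP2B cannot be told apart. WT cells had IGG and LMNB1 libraries, and the 14 copies had no read in those either. Their lack of reads in WT was thus not particular to LAP2B, and its cause was not tested.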

How the data were processed

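The deposited tables hold, per TE copy and library, a signal that the authors made by aligning CUT&RUN reads to mm39 (Bowtie2 2.3.5.1, SAMtools 1.10), binning RPKM coverage with deepTools and multiplying by a yeast spike-in factor (sacCer3). The methods name a wider bin for TEs, but copies matched genes of 1 bin at a width of 1 kb. Whole reads were recovered from the steps of each library (tolerance 0.05 of a step). The members and lists were chosen with earlier results of these data known.

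Subfamily means over copies (at least 10 copies), on the spike-in scale or divided by the library's median subfamily, were tested as log2(value + 0.1 of the table's median) with limma 3.58.1 (R 4.3.3, moderated with trend), with Benjamini-Hochberg adjustment over 1205 subfamilies and a threshold of 0.05. Fold changes on this scale understate those of low values. All LAP2B groups shared 1 fit. Single copies were fitted likewise, adjusted over 3414045 copies. edgeR 4.0.16 on recovered reads was an alternative. Named copies were those with the largest rise and fall in naive QKO among called, non-overlapping copies of at least median level. Intervals and floors take reads as independent counts and leave out the further spread between libraries. Of the pairs of groups checked, all with WT, naive WT and QKO had every same-numbered pair of libraries correlated above 0.1 in their deviations (0.149 to 0.265), and no other pair of groups did. A fit with a replicate block was an alternative throughout. Scripts were tested on simulated data.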

Additional observations from a re-analysis of the deposited data

Results flagged for a closer look

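The effect of a genotype on relative LAP2B differed between EpiLCs and naive cells by a test of the interaction (limma, adjusted over all subfamilies) in all 8 subfamilies for LBRKO and for QKO, where 12.4% and 29.0% of all subfamilies were called lower in the same contrast. With the median copy as divisor 1 of 8 was called for LBRKO and 8 for QKO. On the spike-in scale 0 of 8 were called for either, and the QKO difference there was positive (0.15 to 0.49). The EpiLC effect minus the naive effect of LBRKO was -0.17 in B4, -0.14 in B4A, -0.22 in RSINE1, -0.31 in ID_B1, -0.28 in ID, -0.22 in ID2, -0.26 in ID4 and -0.23 in ID4_. on the log2 scale. For QKO it was -0.26 in B4, -0.22 in B4A, -0.41 in RSINE1, -0.60 in ID_B1, -0.54 in ID, -0.42 in ID2, -0.45 in ID4 and -0.43 in ID4_. on the same scale. The B1 and B2 medians were -0.29 and -0.31 for LBRKO and -0.58 and -0.60 for QKO.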

How the results depend on the processing

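Depth limits single copies, with 8 to 22 reads for the median member copy in LAP2B libraries, and a shared bin cannot be divided among its elements. Of the 8 subfamilies, the median over copies left 0 higher in EpiLC TKO, 1 higher between WT stages and 1 lower in the LBRKO stage difference. The shares of all subfamilies called in the same direction were 0.249%, 0.830% and 1.08%. Dividing by the median copy left 0 between WT stages, with B4 at -0.046, B4A -0.059, RSINE1 -0.00028, ID -0.0065, ID2 -0.028, ID4 -0.0054 and ID4_. at -0.0071, and 1 in the LBRKO stage difference. Of all subfamilies it left 0.498% higher between WT stages and 1.24% lower in the LBRKO stage difference. The 6 libraries alone gave 0 between WT stages (1.91% of all subfamilies higher). Applying the spike-in factor to reads gave 2 higher in naive LBRKO (1.66% of all subfamilies). Leaving out 1 library gave 1 to 8 calls between WT stages (1 without naive WT replicate 2 or EpiLC WT replicate 2), 0 to 5 in the TKO stage difference and 0 to 8 for EpiLC TKO on the spike-in scale. Of all subfamilies, 4.73% and 4.32% were called with the 1, 20.0% with the 5 and 97.9% with the 8 of EpiLC TKO. The cause was not tested. Counting each bin profile once moved no count of the 8 subfamilies called and no count of member copies called by over 1.5 times.

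Member copies called moved in EpiLCs. With the larger pseudocount (0.5 of the median), 1759 were lower in LBRKO, 446 higher and 112 lower in TKO, and 14482 higher and 1883 lower in QKO. Dividing by the median copy gave 161 higher in TKO and 5525 in QKO, no filter gave 90 lower in TKO, and edgeR, chosen after seeing the data, gave 3961 lower in QKO. Over all copies, counting each bin profile once, chosen after seeing the data, moved those higher from 488101 to 270266 in naive LBRKO, 264674 to 136696 in naive TKO, 863359 to 457437 in naive QKO, 53744 to 30602 in EpiLC LBRKO, 1815 to 1119 in EpiLC TKO and 54584 to 26434 in EpiLC QKO, and those lower from 61219 to 40264 in naive TKO, with fewer profiles (2254632) than copies. The split in naive TKO went from 264674 higher and 61219 lower to 183971 and 89152 divided by the median copy, and in QKO edgeR gave 800480 higher and 799303 lower in naive cells and 61556 and 69329 in EpiLCs. In EpiLCs the larger pseudocount gave 39378 lower over all copies in LBRKO, 3212 higher and 2808 lower in TKO and 86424 and 34542 in QKO, no filter gave 1938 lower in TKO, and the median copy as divisor gave 33807 higher in QKO, beside 21615 lower, 1815 and 1156, and 54584 and 17397. Leaving out 1 library gave in naive cells, for member copies, 49771 to 88038 higher and 6495 to 16108 lower in LBRKO, 21167 to 44201 and 1976 to 7674 in TKO, and 119052 to 146499 and 30205 to 46377 in QKO. Over all copies it gave 296828 to 525545 higher and 140427 to 305682 lower in LBRKO. In TKO these were 130908 to 272737 and 20043 to 78910, and in QKO 715148 to 886655 and 439115 to 648543. The lowest naive counts came without WT replicate 2. In EpiLCs leaving out 1 library gave, for member copies, 2596 to 10467 and 255 to 1284 in LBRKO, 27 to 1830 and 8 to 101 in TKO, and 1210 to 11938 and 170 to 1368 in QKO. Over all copies it gave 16910 to 66712 higher and 6007 to 28659 lower in LBRKO. In TKO these were 326 to 11577 and 241 to 1923, and in QKO 7795 to 71207 and 3394 to 24230.

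The log2 ratio of the highest to the lowest LMNB1 class was, with classes by LMNB1 over IGG, 1.08, 0.10, 0.0054 and -1.36 in naive WT, LBRKO, TKO and QKO and 0.19, -0.10, -0.53 and -0.77 in EpiLCs. With classes of the other stage it was 0.37 in naive QKO and 0.93, 0.89, 0.37 and 0.24 in EpiLC WT, LBRKO, TKO and QKO. Leaving out 1 library gave -0.18 to 0.14 in naive QKO, 0.95 to 1.04 in EpiLC LBRKO, 0.65 to 0.76 in EpiLC TKO and 0.54 to 0.69 in EpiLC QKO.

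The fit with the replicate block called 8 of 8 subfamilies higher in naive QKO and 142564 member copies higher beside 142860 without it, and the block moved no count of calls by over 1.5 times. In every comparison, naive WT and QKO included, the labels of the samples share only a number.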
